A study of Mus musculus with 160 samples.

Results

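The 10 genes described here are 9 matrix metalloproteinases, *Mmp2*, *Mmp3*, *Mmp7*, *Mmp8*, *Mmp9*, *Mmp10*, *Mmp12*, *Mmp13* and *Mmp14*, and *Timp1*, the gene of a secreted metalloproteinase inhibitor. They were chosen by name, and all 10 were found among the 39179 genes counted. RNA was sequenced from 160 distal colon samples of mice from 4 knockout lines, each with wild-type controls, in a study of genes predicted to drive inflammatory bowel disease. Homozygous knockouts of *Nckap1l* (16 samples, 4 of them from females) were compared with 15 wild types (8 females), and knockouts of *Dock2* (18 samples, 8 females) with 24 wild types (12 females). The *Gpsm3* line (20 knockouts and 20 wild types) and the *Dok3* line (26 and 21) were labelled male throughout. All groups come from knockout breeding lines with no transgene named. The strain was given as C57BL6/J for *Nckap1l*, *Dock2* and *Gpsm3* and as 129 for *Dok3*. Per the study's methods the models were re-derived with C57BL6/J females and bred between heterozygotes, so that controls were littermates. The labels describe a course of dextran sulfate sodium (DSS), which damages the lining of the colon when mice drink it, at 3% for *Dock2* and *Gpsm3* and 3.5% for *Dok3*, followed by water. They give no dose for *Nckap1l*, for which the study's methods name a dose somewhat below that of *Dock2*, and they add that a first round of *Dok3* mice received the dose of *Dock2*. Collection was at day 12 for *Nckap1l* and at day 10 for *Dock2*, *Gpsm3* and *Dok3*. Per the methods mice with and without DSS were sequenced, but the sources used here do not say which sample is which, so that they could not be separated, and each library was placed instead by an inflammation score. The score was the mean log2 level of 18 inflammation genes that include no member (among them *Il1b*, *Il6*, *Tnf*, *Cxcl1*, *Cxcl2*, *S100a8*, *S100a9* and *Lcn2*), and 1 unit corresponds on average to a doubling of these genes.

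Matrix metalloproteinases are zinc-dependent enzymes that are made as inactive precursors and, once their propeptide is cut, digest components of the extracellular matrix and free growth factors and cytokines from it. They are grouped by substrate and structure: the stromelysins *Mmp3* and *Mmp10*, the collagenases *Mmp8* and *Mmp13*, the gelatinases *Mmp2* and *Mmp9*, the small matrilysin *Mmp7*, the macrophage elastase *Mmp12* and the membrane-anchored *Mmp14*, which activates pro-*Mmp2* on cell surfaces. *Timp1* encodes a protein that binds and blocks many of the active enzymes. In injured gut the enzymes take part in ulcer formation and in repair, and neutrophils, macrophages, fibroblasts and epithelium each make some of them.

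On GRCm38, 6 of the members lie on the plus strand of chromosome 9 within 427.1 kb, from 7272514 to 7699585, in a cluster of 10 *Mmp* genes: *Mmp13*, *Mmp12*, *Mmp3*, *Mmp10*, *Mmp8* and *Mmp7*, in this order. *Mmp2* (chr8:92827291-92853420), *Mmp9* (chr2:164940780-164955850), *Mmp14* (chr14:54431612-54445364) and *Timp1* (chrX:20870166-20874735) lie elsewhere. The promoter sequence of 8 members was in the RefSeq table used here. The 100 bases before the transcription start are shown for 6 members with different behaviour against the inflammation score, 5 of them from the cluster, 5′ to 3′ on the plus strand of GRCm38.p6. Capitals mark the AP-1 motif (TGAGTCA, searched on both strands, so that TGACTCA also counts) and the TATA motif (TATAAA, searched on the strand of the gene). The windows are chr9:7445722-7445821 for *Mmp3*, chr9:7502242-7502341 for *Mmp10*, chr9:7272414-7272513 for *Mmp13*, chr9:7558329-7558428 for *Mmp8*, chr9:7347274-7347373 for the downstream of 2 listed *Mmp12* starts and chrX:20870066-20870165 for *Timp1*.
Mmp3: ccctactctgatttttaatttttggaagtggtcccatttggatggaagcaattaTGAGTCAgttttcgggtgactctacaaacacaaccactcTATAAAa
Mmp10: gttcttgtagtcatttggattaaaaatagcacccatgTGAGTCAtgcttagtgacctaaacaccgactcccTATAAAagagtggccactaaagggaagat
Mmp13: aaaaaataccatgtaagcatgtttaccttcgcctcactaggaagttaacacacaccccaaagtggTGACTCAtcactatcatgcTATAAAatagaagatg
Mmp8: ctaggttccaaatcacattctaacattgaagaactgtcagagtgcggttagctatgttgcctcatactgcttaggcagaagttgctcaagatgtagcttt
Mmp12: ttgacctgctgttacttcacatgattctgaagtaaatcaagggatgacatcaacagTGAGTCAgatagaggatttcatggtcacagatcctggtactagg
Timp1: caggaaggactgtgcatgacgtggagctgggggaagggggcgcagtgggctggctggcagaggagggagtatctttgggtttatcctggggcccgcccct
The AP-1 letters stood at 46 to 40 bases before the start in *Mmp3*, 63 to 57 in *Mmp10*, 35 to 29 in *Mmp13* and 44 to 38 in *Mmp12*, and at 63 to 57 in the first of 2 listed *Mmp7* windows, which is not shown. Within 250 bases upstream, 4.46% of all 32851 promoter windows held this motif and 7.59% held TATAAA. Neither motif was found within 250 bases of the *Mmp8*, *Mmp14* and *Timp1* starts, the upstream *Mmp12* start and the other *Mmp7* start, which says only that these letters are not in those windows. AP-1 is a Fos and Jun transcription factor induced by cytokines and stress. The matches are descriptions of sequence, and binding was not measured.

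The libraries held 4344988 to 19993833 counts, so that 3 counts corresponded to 0.15 to 0.69 CPM (the counts-per-million scale, with library sizes normalized by the trimmed mean of M values). No 2 libraries of a group agreed within sampling noise. The median level of the knocked-out gene was lower in knockouts than in wild types of all 4 lines, but the ranges of the groups overlapped, and the difference passed the test only for *Gpsm3* (0.576 against 3.2 CPM, log2 fold change -2.06, edgeR adjusted p = 0.000101), with -1.1 for *Nckap1l* (adjusted p = 1), -0.62 for *Dock2* (0.215) and -0.48 for *Dok3* (0.999). Epithelial and smooth muscle markers were detected in every library. In 5 *Dok3* libraries labelled male, 3 of knockouts and 2 of wild types, *Xist* and Y-linked genes went against the label. Keratinocyte or striated muscle markers summed to over 100 CPM in 34 libraries, 17 of them among the 31 of the *Nckap1l* line, and 19 libraries, all labelled male, held over 10 CPM of prostate markers. These libraries were kept, and where a value without them is given it is named as such.

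The members differed widely in how much of them the tissue held. Per kilobase of exon, the median level over all 160 libraries was highest for *Mmp2* (24.1 CPM per kb) and *Mmp14* (13.6), followed by *Timp1* (4.74), *Mmp3* (2.75), *Mmp13* (2.13), *Mmp10* (1.06), *Mmp9* (0.815), *Mmp12* (0.512), *Mmp7* (0.221) and *Mmp8* (0.104). The order of the highest single libraries on this per-length scale was different. *Mmp8* reached 378 CPM per kb, *Timp1* 178, *Mmp2* 131, *Mmp9* 120, *Mmp7* 109, *Mmp3* 90.1, *Mmp10* 57.2, *Mmp14* 47 and *Mmp13* 45, while *Mmp12* stayed at or below 5.57. *Mmp8* and *Mmp7* had at most 3 counts in 71 and 83 of the 160 libraries and none in 31 and 21, whereas the other 8 members were counted in every library. In 50-base words, 8.39% of the *Mmp3* transcripts and 8.37% of the *Mmp10* transcripts occur in another gene, chiefly each other, so a small part of their reads may not be assigned uniquely. Exons of *Mmp12* and *Mmp7* overlap *Mmp1b* and *AV064505* on the opposite strand, which held at most 4 and 2 counts in any library.

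**Figure D1:**
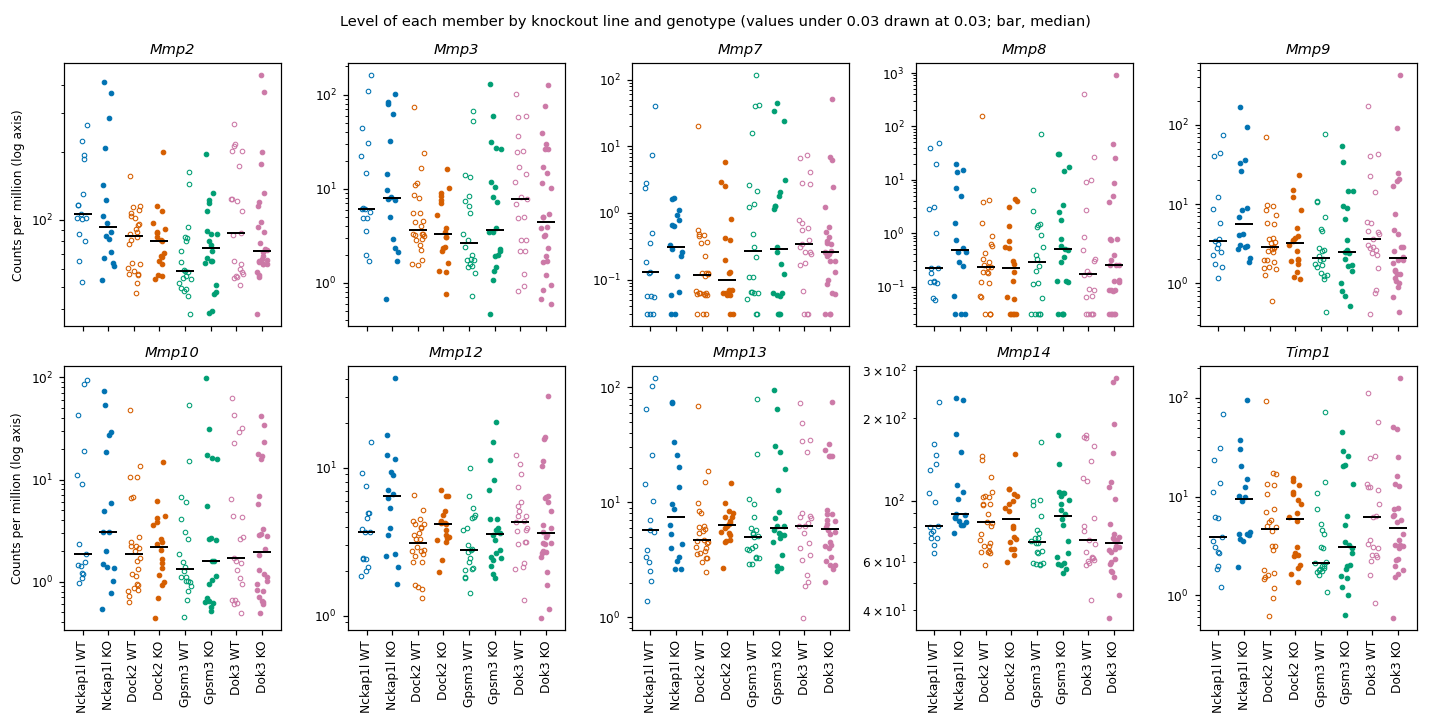
Level of each of the 10 members (CPM, log axis) in the 8 groups, with wild types as open and knockouts as filled circles, 1 circle per library, and black bars at the group medians. Knockouts and wild types overlapped in every panel, *Mmp2* and *Mmp14* were above 37 CPM in all libraries, and the highest *Mmp8* value, 918 CPM, was a *Dok3* knockout.

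The first comparison asked whether the members differed between knockouts and wild types of a line. None did at an adjusted p under 0.05 by edgeR's quasi-likelihood test in any of the 4 lines, where 8, 8, 9 and 8 members passed the filter on low counts in *Nckap1l*, *Dock2*, *Gpsm3* and *Dok3*. The comparison called few genes at all: 0% of the genes tested in *Nckap1l*, 0.0340% in *Dock2*, 0.00569% in *Gpsm3* and 0% in *Dok3*. At an unadjusted p under 0.05, 1 member passed in *Nckap1l*, 1 in *Dock2*, 1 in *Gpsm3* and 0 in *Dok3*, beside 4.52%, 5.12%, 4.83% and 2.19% of all genes tested. The median log2 fold change of the members tested was 0.22, -0.19, 0.37 and -0.05 in the 4 lines, against -0.005 to 0.001 over all genes tested. *Mmp8* did not pass the filter in any line and *Mmp7* only in *Gpsm3*. Fitted without the filter, *Mmp8* gave -0.91 ± 1.07, -1.72 ± 1.05, 0.19 ± 0.91 and 0.82 ± 1.14, and *Mmp7* gave -2.58 ± 0.92 (unadjusted p = 0.0087, adjusted p = 0.732), -0.30 ± 0.74, -1 ± 0.97 and 1.03 ± 0.76, none of them called. Prostate markers exceeded 10 CPM in 2 wild types and 0 knockouts of *Nckap1l* and in 5 and 6 of *Gpsm3*. The *Nckap1l* wild type with the most *Mmp7* (39.7 CPM) held 1180 CPM of them. Their part in the *Mmp7* values of these lines was not tested.

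*Mmp12*, the elastase of macrophages, was the member with the unadjusted p under 0.05 in each of the first 3 lines. In the *Nckap1l* line the lowest, median and highest *Mmp12* levels were 1.64, 6.41 and 40.3 CPM in knockouts and 1.84, 3.66 and 14.9 CPM in wild types. In the *Dock2* line they were 1.97, 4.18 and 7.03 CPM in knockouts and 1.32, 3.11 and 6.56 CPM in wild types. *Gpsm3* knockouts held 1.78, 3.56 and 20.4 CPM and their wild types 1.42, 2.78 and 10.03 CPM. Knockout medians were thus higher in these 3 lines, with ranges that overlapped in each, and the highest library, a *Nckap1l* knockout, also held 6780 CPM of keratinocyte markers. In the *Dok3* line the median was lower in knockouts (0.97, 3.59 and 30.5 CPM) than in wild types (1.27, 4.29 and 12.1 CPM). The log2 fold changes were 0.91 ± 0.40 (SE) in *Nckap1l* (unadjusted p = 0.0289, adjusted p = 1), 0.38 ± 0.15 in *Dock2* (0.0151 and 0.795), 0.60 ± 0.29 in *Gpsm3* (0.0439 and 0.931) and 0.31 ± 0.31 in *Dok3* (0.316 and 0.999), all by edgeR. The *Nckap1l* value depended on which libraries were kept. It was 0.14 ± 0.52 (unadjusted p = 0.793) without the libraries that held keratinocyte or striated muscle markers, 17 of the 31 of the line. Without the 2 wild types that held prostate markers it was 1.59 ± 0.37 (unadjusted p = 0.00017, adjusted p = 0.289). A single knockout coefficient over all 160 libraries, added after these values were seen, was 0.52 ± 0.15 for *Mmp12* (unadjusted p = 0.000546, adjusted p = 0.295), in a fit that called 0.0202% of all genes and no member. This coefficient pools knockouts of 4 different genes.

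No other member had an unadjusted p under 0.05 in the filtered fits. For *Mmp2* and *Mmp14*, whose levels were high and even, the 95% intervals of the log2 fold change were the narrowest, from -0.26 to 0.29 and from -0.23 to 0.22 in *Dock2* and from -0.13 to 0.59 and from -0.08 to 0.44 in *Gpsm3*. For the steeply varying members the intervals allow large differences in either direction. That of *Mmp9* ran from -0.88 to 2.09 in *Nckap1l* and from -0.87 to 2.08 in *Dok3*, that of *Mmp10* from -2.00 to 1.21 and from -1.73 to 0.65, and that of *Timp1* from -0.79 to 1.58 and from -1.06 to 1.12. Several of these differences moved when libraries were left out, some of them to the other sign: without the 2 *Nckap1l* wild types that held prostate markers, *Mmp3*, *Mmp10* and *Mmp13* moved from -0.13, -0.40 and -0.47 to 1.17, 1.20 and 0.98, and *Mmp9* from 0.60 to 2.22 ± 0.66 (unadjusted p = 0.00219, adjusted p = 0.459), none of them called. These 2 wild types also had inflammation scores of 6.52 and 5.67, the highest of the line, so that the markers and the scores cannot be told apart here. Without the libraries with keratinocyte or striated muscle markers *Mmp9* and *Timp1* moved in the same line from 0.60 and 0.39 to -1.90 and -0.97, also not called. With the inflammation score as a covariate, the *Nckap1l* values were 0.96 ± 0.23 for *Mmp9* (unadjusted p = 0.000232, adjusted p = 0.134) and 0.75 ± 0.27 for *Timp1* (0.00911 and 0.482), and with 2 surrogate variables *Mmp9* was called (1.15 ± 0.27, adjusted p = 0.0389). The share of all genes called with 2 surrogate variables is not given here, so this call has no background beside it. The knockout effect on a member did not differ detectably between lines either, since the line by genotype interaction called 0 of the 10 members beside 0.695% of all genes (smallest unadjusted p = 0.0589, for *Mmp7*). With the inflammation score as a covariate in this edgeR test, the smallest unadjusted p was 0.000914, for *Mmp9* (adjusted p = 0.0921, not called).

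**Figure D2:**
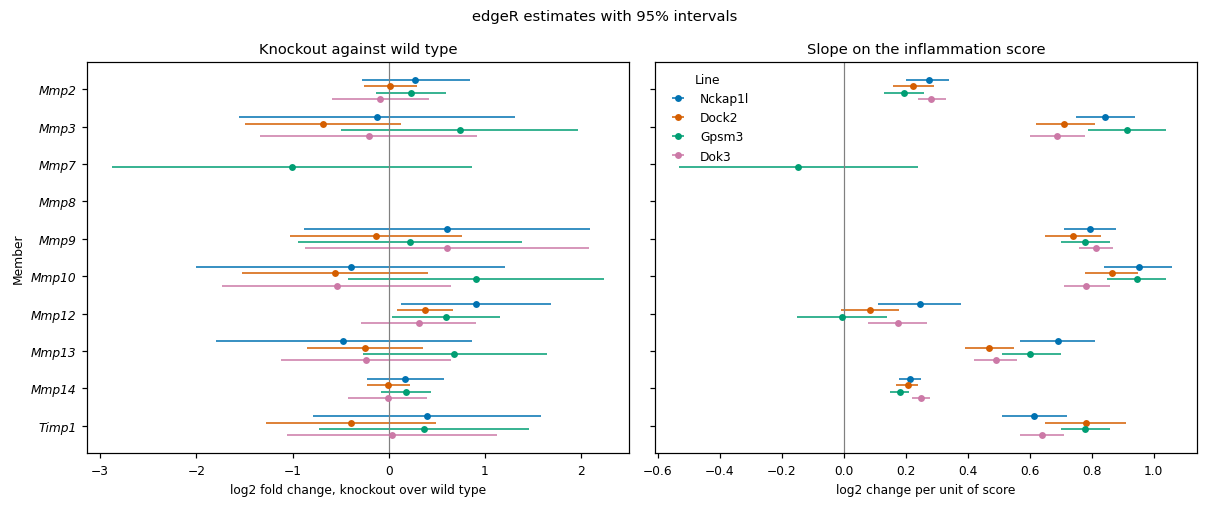
edgeR estimates for the members that passed the filter in each line, with 95% intervals, colored by line. Left, log2 fold change of knockouts over wild types, where every interval but those of *Mmp12* in 3 lines includes 0. Right, log2 change per unit of inflammation score, where all intervals lie above 0 except that of *Mmp7* and those of *Mmp12* in *Dock2* and *Gpsm3*.

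The libraries of each line spread widely along the inflammation score. Scores ran from -1.12 to 6.52 in *Nckap1l*, -1.26 to 5.97 in *Dock2*, -1.64 to 5.49 in *Gpsm3* and -1.58 to 8.21 in *Dok3*, with medians of 0.879, -0.00115, -0.389 and 0.0847. In *Dock2*, 1 wild-type library stood alone at the top, separated by 40.1% of the range. Along this score, 8 of 8 members tested rose in *Nckap1l*, 7 of 8 in *Dock2*, 7 of 9 in *Gpsm3* and 8 of 8 in *Dok3*, and none fell (edgeR, adjusted p under 0.05). Rising genes made up 24.7%, 29.0%, 26.8% and 33.3% of all genes tested in these lines. The median slope of the members tested was 0.65, 0.59, 0.60 and 0.57 log2 per unit of score, against 0.00 over all genes in each line. No member's slope passed the test of a difference between knockouts and wild types: the genotype by score term called 0 members in every line, beside 0.0111%, 0.0170%, 0% and 0.00568% of all genes. The smallest unadjusted p was 0.000236, for a shallower *Mmp13* slope in *Dock2* knockouts (difference -0.33 ± 0.08, adjusted p = 0.228), in the line whose top score is 1 wild-type library. The tissue held less RNA of epithelium and more of immune cells as the score rose. Over the 160 libraries, after removal of line and sex means, the score had a Pearson r of 0.98 with neutrophil markers, 0.91 with macrophage markers, 0.76 with fibroblast markers and -0.64 with epithelial markers. The score itself includes neutrophil genes such as *S100a8* and *S100a9*, so its r with neutrophil markers is partly fixed by its makeup. This bears also on *Mmp8* and *Mmp9*, which neutrophils make. In bulk tissue, more cells of a type and more RNA per cell cannot be told apart.

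**Figure D3:**
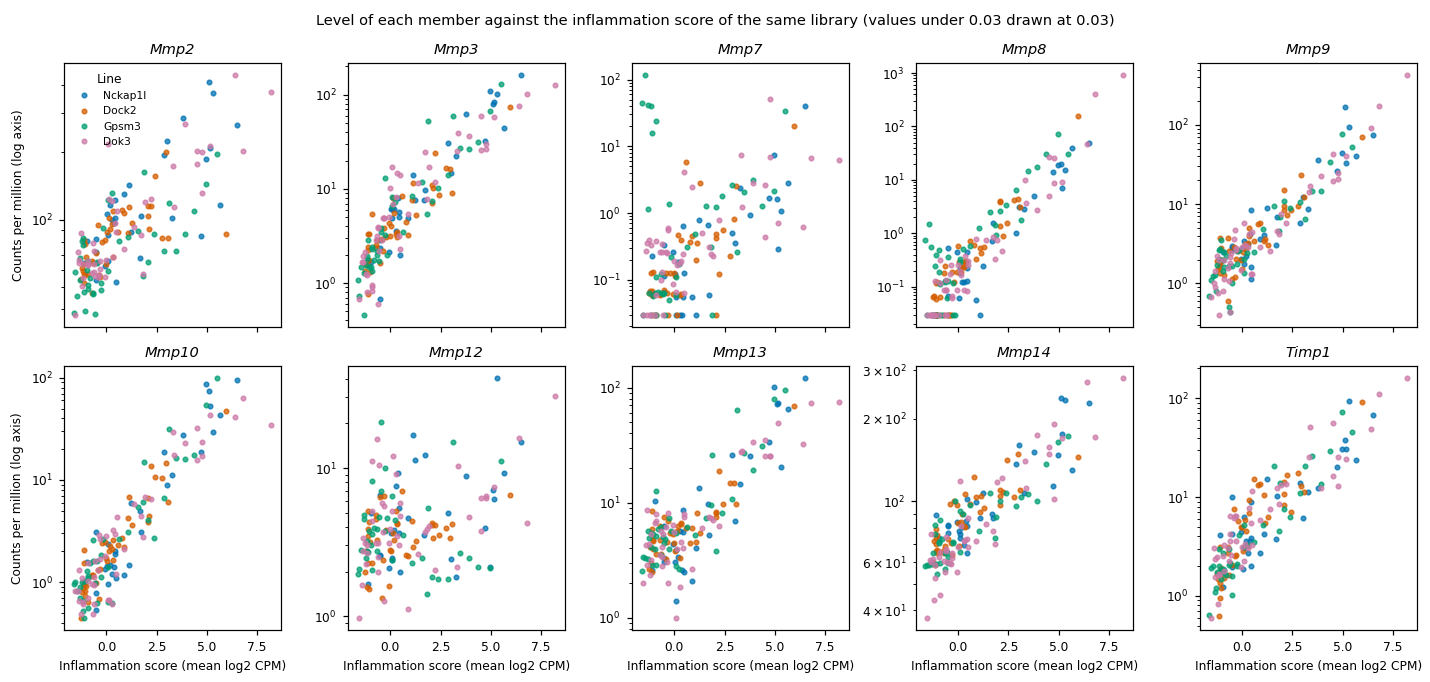
Level of each member (CPM, log axis) against the inflammation score of the same library (mean log2 CPM of 18 genes), 160 libraries colored by line. *Mmp3*, *Mmp8*, *Mmp9*, *Mmp10*, *Mmp13* and *Timp1* climbed with the score in all 4 lines, *Mmp2* and *Mmp14* rose less steeply from a high level, *Mmp12* scattered, and several *Gpsm3* libraries with low scores had high *Mmp7*.

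The stromelysin *Mmp10* had the steepest slope of the members tested in *Nckap1l*, *Dock2* and *Gpsm3*, and in *Dok3* only *Mmp9* was steeper. *Mmp10* levels ran from a lowest of 0.445 CPM to a highest of 98.5 CPM over all libraries. In the *Nckap1l* line the lowest, median and highest were 0.536, 3.07 and 74.2 CPM in knockouts and 0.962, 1.88 and 94.7 CPM in wild types, and in the *Dock2* line 0.445, 2.19 and 14.7 CPM and 0.636, 1.85 and 47.6 CPM. In *Gpsm3* they were 0.518, 1.60 and 98.5 CPM in knockouts and 0.449, 1.34 and 53.9 CPM in wild types, and in *Dok3* 0.491, 1.95 and 41.5 CPM and 0.490, 1.69 and 62.9 CPM. The group medians thus lay between 1.34 and 3.07 CPM, far below the highest library of each group, and knockouts and wild types overlapped. The slope of *Mmp10* was 0.95 ± 0.06 in *Nckap1l*, 0.87 ± 0.04 in *Dock2*, 0.95 ± 0.05 in *Gpsm3* and 0.78 ± 0.04 in *Dok3* (adjusted p at most 3.48e-14). *Mmp3*, which like *Mmp10* acts on proteoglycans and activates other pro-metalloproteinases, had slopes of 0.84 ± 0.05, 0.71 ± 0.05, 0.91 ± 0.06 and 0.69 ± 0.05 in the same order of lines, from a median of 4.95 CPM and up to 162 CPM. Pearson r with the score was 0.93 to 0.95 for *Mmp10* and 0.9 to 0.95 for *Mmp3* (Spearman rho 0.81 to 0.91 and 0.86 to 0.93, each with p = 1e-05, the smallest that 100000 permutations can give). Without the 2 libraries farthest from the median score, r was at least 0.9 and 0.86, and within the runs of consecutive sample numbers in each line it was 0.88 to 0.98 and 0.85 to 0.98.

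The gelatinase *Mmp9*, which neutrophils store in granules, rose almost as steeply, while *Mmp2*, made mainly by stromal cells, rose from a high level. *Mmp9* medians were 5.58 CPM in *Nckap1l* knockouts and 3.46 CPM in wild types, 3.25 and 2.83 CPM in *Dock2*, 2.50 and 2.12 CPM in *Gpsm3* and 2.08 and 3.66 CPM in *Dok3*, with highest values of 167, 75.4, 23.6, 69.7, 53.4, 76.8, 426 and 172 CPM in the same order. Its slopes were 0.80 ± 0.05, 0.74 ± 0.05, 0.78 ± 0.04 and 0.82 ± 0.03 in *Nckap1l*, *Dock2*, *Gpsm3* and *Dok3*, all with adjusted p of 1.35e-14 or less. *Mmp2* lay between 37.8 and 441 CPM in every library and had slopes of only 0.27 ± 0.04, 0.23 ± 0.03, 0.20 ± 0.03 and 0.28 ± 0.02, all called. The interval of the *Mmp2* slope (at most 0.34) lay below that of *Mmp9* (at least 0.65) in all 4 lines. *Mmp2* was tied more closely to fibroblast markers (r = 0.96 over 160 libraries, p = 1e-05) than to neutrophil markers (0.81), and *Mmp9* had the opposite order (0.77 and 0.94), a description of these libraries in which the difference of the 2 values was not tested. Levels of both gelatinases also rose with keratinocyte markers (r = 0.59 for *Mmp2* and 0.26 for *Mmp9*), and the highest *Mmp2* library, a *Dok3* knockout at 441 CPM, held 7100 CPM of these. Without the libraries that held keratinocyte or striated muscle markers, r with the score was 0.61 to 0.9 for *Mmp2* and 0.88 to 0.95 for *Mmp9* in the 4 lines.

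The neutrophil collagenase *Mmp8* was close to absent from most libraries and very high in a few. Its lowest, median and highest levels were 0, 0.486 and 19.9 CPM in *Nckap1l* knockouts and 0.0561, 0.222 and 48.9 CPM in wild types. In *Dock2* they were 0, 0.225 and 4.3 CPM in knockouts and 0, 0.233 and 159 CPM in wild types. *Gpsm3* knockouts held 0, 0.496 and 31 CPM and wild types 0, 0.282 and 72.5 CPM, and *Dok3* knockouts 0, 0.251 and 918 CPM and wild types 0, 0.174 and 411 CPM. All medians were below 0.5 CPM, and 17 of the 160 libraries exceeded 10 CPM. The 3 highest, a *Dok3* knockout (918 CPM), a *Dok3* wild type (411 CPM) and a *Dock2* wild type (159 CPM), had scores of 8.21, 6.83 and 5.97. *Mmp8* did not pass the filter on low counts in any line. Without that filter its slope was the steepest of the members in every line, 1.28 ± 0.07 in *Nckap1l*, 1.51 ± 0.06 in *Dock2*, 1.21 ± 0.09 in *Gpsm3* and 1.48 ± 0.04 in *Dok3*, all called, where 15.8%, 17.5%, 16.6% and 22.6% of the genes tested rose. Pearson r with the score was 0.9 to 0.96 and Spearman rho 0.69 to 0.9 (each p = 1e-05). The collagenase *Mmp13*, which is made by stromal cells, was counted at a median of 5.7 CPM and up to 120 CPM. *Mmp13* slopes were 0.69 ± 0.06, 0.47 ± 0.04, 0.60 ± 0.05 and 0.49 ± 0.04 in *Nckap1l*, *Dock2*, *Gpsm3* and *Dok3*, with r of 0.83 to 0.88 and rho of 0.64 to 0.75.

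*Mmp14*, the membrane-type enzyme, had the second highest level per length and the smallest relative range. It was counted between 37.5 and 280 CPM, and its slopes of 0.21 ± 0.02, 0.21 ± 0.02, 0.18 ± 0.02 and 0.25 ± 0.02 were small but called in every line (adjusted p at most 3.1e-11). Its r with the score was 0.84 to 0.92.

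*Timp1*, the inhibitor, had slopes in the range of the steep enzymes. In the *Nckap1l* line its lowest, median and highest levels were 1.94, 9.43 and 94.1 CPM in knockouts and 1.22, 3.88 and 68.2 CPM in wild types, and in *Dock2* 1.36, 5.97 and 15.3 CPM and 0.624, 4.71 and 92.3 CPM. In *Gpsm3* they were 0.637, 3.12 and 45.0 CPM and 1.09, 2.14 and 72.7 CPM, and in *Dok3* 0.597, 4.86 and 158 CPM and 0.836, 6.19 and 111 CPM. The groups overlapped almost entirely in each line. Slopes were 0.61 ± 0.05 in *Nckap1l*, 0.78 ± 0.07 in *Dock2*, 0.78 ± 0.04 in *Gpsm3* and 0.64 ± 0.04 in *Dok3* (adjusted p at most 1.11e-10). Pearson r with the score was 0.87 to 0.94 and Spearman rho 0.77 to 0.89. The rest of its family had lower slopes: *Timp4* fell in 4 of 4 lines (slope -0.27 to -0.19), while *Timp2* (-0.01 to 0.12) rose in 2 lines and *Timp3* (-0.02 to 0.07) in 1.

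*Mmp12* was only weakly tied to the score. Its slope was 0.25 ± 0.07 in *Nckap1l* (adjusted p = 0.00437) and 0.17 ± 0.05 in *Dok3* (0.00158), but 0.08 ± 0.05 in *Dock2* (0.125) and -0.01 ± 0.08 in *Gpsm3* (0.951). Both calls rested on few libraries. Without the 2 libraries farthest from the median score the slope was 0.11 in *Nckap1l*, no longer called, and 0.12 in *Dok3* (adjusted p = 0.0628), and without the *Dok3* knockout with the highest *Mmp8* alone it was 0.11 (0.0877). In *Nckap1l* the slope was 0.17 without the libraries that held keratinocyte or striated muscle markers (adjusted p = 0.351). Pearson r was -0.05 to 0.45 and Spearman rho -0.09 to 0.42. With macrophage markers, *Mmp12* had an r of 0.36 over the 160 libraries, against 0.90 for *Timp1*. The third highest *Mmp12* library, a *Gpsm3* knockout with 20.4 CPM, had a score of -0.493.

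*Mmp7*, the matrilysin, is an enzyme of glandular epithelium that in the mouse is known from the Paneth cells of the small intestine, where it activates defensins. Here it was counted at a median of 0.236 CPM, with 10 of 160 libraries above 10 CPM. In the *Nckap1l* line its lowest, median and highest levels were 0, 0.313 and 1.70 CPM in knockouts and 0, 0.128 and 39.7 CPM in wild types, and in *Dock2* 0, 0.0975 and 5.87 CPM and 0, 0.117 and 20.4 CPM. In *Gpsm3* they were 0, 0.286 and 43.9 CPM and 0, 0.264 and 117 CPM, and in *Dok3* 0, 0.256 and 50.4 CPM and 0, 0.337 and 7.37 CPM. High levels were not limited to inflamed libraries: 7 of the 10 were from the *Gpsm3* line, and 6 of these had scores below the median of the line, from the highest of all at 117 CPM (score -1.45) through 43.9 CPM (-1.64), 42 CPM (-1.34), 40.4 CPM (-1.18) and 23.6 CPM (-0.943) to 15.9 CPM (-1.13). In *Gpsm3*, the only line where *Mmp7* passed the filter, its slope was -0.15 ± 0.20 (adjusted p = 0.545).

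The genes most like *Mmp7* over the 160 libraries, by Pearson r after removal of line and sex means among 17066 genes, were *Dnajc10* (0.82), *Tgm4* (0.74) and *9530053A07Rik* (0.68). *Tgm4* encodes the prostate transglutaminase. A list of 3 prostate markers was added, *Pbsn* (probasin), *Tgm4* and *Msmb*, after these genes were seen. Its summed level was 0.187 to 6.66 CPM in 141 libraries and 12 to 3420 CPM in 19, 6 of *Gpsm3* knockouts, 5 of *Gpsm3* wild types and 8 of the other lines, all labelled male. Among the 10 libraries with *Mmp7* above 10 CPM, 9 were among these 19. The exception was a *Dok3* knockout with 50.4 CPM of *Mmp7*, a score of 4.75 and 0.451 CPM of prostate markers. In the 12 libraries with over 100 CPM of prostate markers, *Mmp7* amounted to 2.8% to 5.18% of their sum, at *Mmp7* levels from 4.14 to 117 CPM, and over all 19 libraries to 2.8% to 25.6%. Seminal vesicle genes (*Svs2*, *Svs4* and *Svs5*) exceeded 100 CPM in 1 library. With Paneth cell markers, which were low throughout (1.54 to 69.6 CPM in sum), *Mmp7* had an r of -0.11 (permutation p = 0.153).

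**Figure D4:**
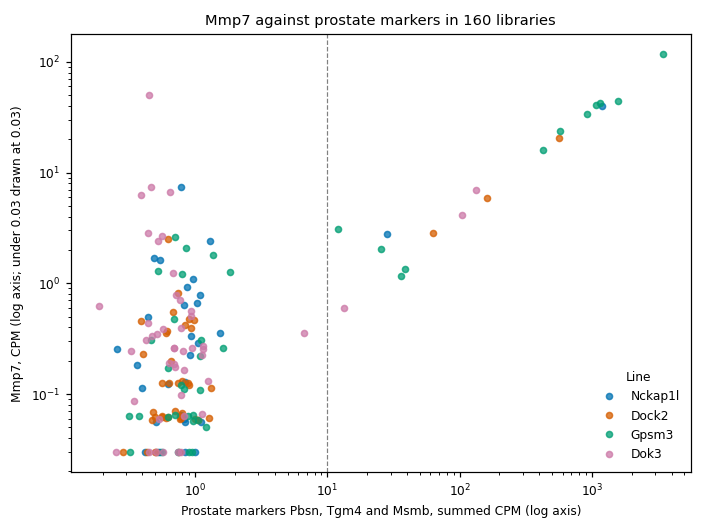
*Mmp7* (CPM, log axis) against the summed level of the prostate markers *Pbsn*, *Tgm4* and *Msmb* (CPM, log axis) in 160 libraries, colored by line, with a dashed line at 10 CPM. In the 19 libraries right of the line *Mmp7* rose with the markers up to 117 CPM, and to the left of it 1 *Dok3* knockout reached 50.4 CPM.

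Without the libraries that held over 10 CPM of prostate markers, *Mmp7* followed the inflammation score in all 4 lines. These libraries were left out by markers added after the genes most like *Mmp7* were seen. The values without them, the permutation p included, are descriptions and no independent test. In *Gpsm3*, Pearson r was 0.14 over 40 libraries (permutation p = 0.4, Spearman rho 0.13) and 0.82 over the remaining 29 (p = 1e-05, rho 0.72). In the other lines it was 0.79 over all and 0.73 over 29 libraries in *Nckap1l*, 0.72 and 0.69 (39 libraries) in *Dock2* and 0.73 and 0.74 (44 libraries) in *Dok3*. Over all libraries and without the low-count filter, the *Mmp7* slope was 0.95 ± 0.11 in *Nckap1l*, 1.02 ± 0.13 in *Dock2* and 0.85 ± 0.11 in *Dok3*, each called. In *Gpsm3* it was -0.145 ± 0.199 (edgeR adjusted p = 0.632). Rising genes made up 15.8%, 17.5%, 22.6% and 16.6% of all genes tested in *Nckap1l*, *Dock2*, *Dok3* and *Gpsm3*. These fits kept the libraries with prostate markers, among them the library with the highest score in *Nckap1l* and in *Dock2*. Over 160 libraries r between the mean log2 level of these markers and a member was 0.74 for *Mmp7*, 0.2 for *Mmp8* and at most 0.13 for the rest, a description only, since the list was chosen from genes most like *Mmp7* in these libraries.

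Most members also rose with each other. Of the 45 pairs, 44 had a permutation p under 0.05 over the 160 libraries after removal of line and sex means, and 26 had an r above 0.7, up to 0.91 for *Mmp8* and *Mmp9* and 0.9 for *Mmp2* and *Mmp14*. After the score was removed as well, 17 pairs had a p under 0.05, 13 had an r below 0, and 1 kept an r above 0.7: *Mmp2* and *Mmp14* at 0.71 (p = 1e-05). Both also had a high r with fibroblast markers (0.96 for *Mmp2* and 0.88 for *Mmp14*), and the part of fibroblast content in this pair was not tested. *Mmp10* and *Mmp13* kept an r of 0.51 (p = 1e-05), and *Timp1* kept 0.36 with *Mmp14* (p = 1e-05), 0.27 with *Mmp9* and 0.26 with *Mmp10*. *Mmp7* and *Mmp8* had 0.5 after removal of the score, in libraries where both were often at or near 0. The 19 libraries that held prostate markers were kept here, and their part in this value was not tested. The pairs share library, depth and cell makeup, and the part of each in these values was not tested.

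**Figure D5:**
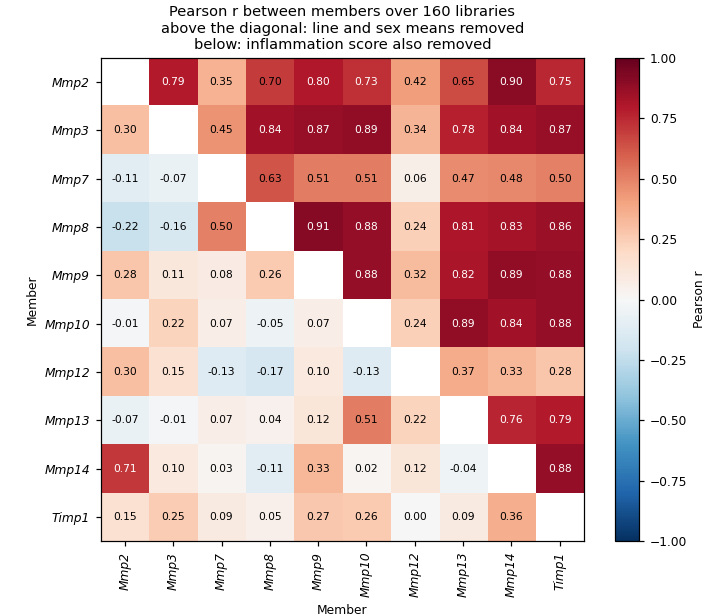
Pearson r between the members over 160 libraries, above the diagonal after removal of line and sex means and below it after removal of the inflammation score as well. Above the diagonal most values lie over 0.7 except in the rows of *Mmp7* and *Mmp12*, and below it *Mmp2* with *Mmp14* (0.71) and *Mmp10* with *Mmp13* (0.51) stand out.

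The genes most like each member, by Pearson r over the 160 libraries after removal of line and sex means, among 17066 genes, were as follows. *Mmp2* was most like *Bicc1*, *Mrc2* and *Bmp1* (each 0.95), the last of which encodes a procollagen proteinase, and *Mmp14* was most like *Efemp2* (0.94), *Col18a1* (0.93) and *Tgfbi* (0.93), which encode matrix proteins. *Mmp8* was most like the neutrophil genes *Retnlg* (0.93) and *S100a8* (0.92) and *Ifitm1* (0.92), *Mmp9* most like *Srgn* (0.93), *Ifitm1* and *Itgam* (each 0.92), and *Mmp3* most like *Clec4d* (0.91), *S100a9* and *Csf2rb2* (each 0.9). *Mmp10* was most like the cytokine gene *Il1b* (0.94), then *Il1rl1* and *Csf3r* (each 0.92). *Mmp13* was most like *Mmp10* (0.89), then *Ccr1* and *Ifitm1* (each 0.86), and *Timp1* was most like *Vcan*, *Mmp19* and *Ms4a6d* (each 0.93). For *Mmp12* no gene exceeded 0.6 (*Casp12*, then *Gm12394* and *Ptgir* at 0.59). *S100a8*, *S100a9* and *Il1b* also belong to the score, and these largest values are given as descriptions.

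Levels of the members in wild types differed between lines. *Dok3* also differed from the rest in strain and dose, and *Nckap1l* in day and dose, so that these cannot be told apart. *Dock2* and *Gpsm3* shared strain, dose and day. The mean inflammation score of wild types was 1.85 in *Nckap1l*, 0.385 in *Dock2*, 0.142 in *Gpsm3* and 1.13 in *Dok3*. Keratinocyte markers exceeded 100 CPM in 8 of 15, 4 of 24, 1 of 20 and 5 of 21 of them, and their part was not tested. With sex as a covariate, 5 of the 10 members differed across the 4 wild-type groups (*Mmp2*, *Mmp3*, *Mmp7*, *Mmp10* and *Mmp13*), beside 41.8% of all genes. With the inflammation score as a covariate 4 members were called, and with males alone 2 were called. The share of all genes called in these fits is not given here, so these counts have no background beside them. *Mmp2*, *Mmp3*, *Mmp10* and *Mmp13* were lower in *Dock2* than in *Nckap1l* wild types (log2 differences -0.60, -1.90, -2.10 and -1.69) and lower in *Gpsm3* than in *Nckap1l* (-0.77, -2.13, -2.41 and -1.87), comparisons that called 15.4% and 24.1% of all genes. Between *Dok3* and *Gpsm3* (30.4% called) *Mmp2* was higher in *Dok3* by 0.73 and *Mmp7* lower (-3.03, adjusted p = 0.00721). No member was called in the other 3 pairs, which called 11.5% (*Dok3* and *Nckap1l*), 0.121% (*Gpsm3* and *Dock2*) and 10.6% (*Dok3* and *Dock2*). These pairs share wild-type groups. Without the 10 wild-type libraries that held prostate markers, *Mmp7* did not pass the filter, and the 5 members that differed across lines were *Mmp2*, *Mmp3*, *Mmp8*, *Mmp9* and *Mmp12*. For this fit too the share of all genes called is not given.

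Between the sexes no member passed the test, beside 0.184% of genes in *Nckap1l* and 9.97% in *Dock2*. In *Dock2*, 5 of the 8 members tested had an unadjusted p under 0.05, beside 25.7% of all genes, and were all lower in females than in males: *Mmp3* (log2 difference -0.98 ± 0.41, adjusted p = 0.119), *Timp1* (-1.02 ± 0.45, 0.14), *Mmp9* (-0.93 ± 0.45, 0.188), *Mmp13* (-0.73 ± 0.31, 0.119) and *Mmp12* (-0.39 ± 0.15, 0.0926). In *Nckap1l* the corresponding values ranged from -0.001 for *Mmp13* to 0.84 for *Mmp9*, and the difference between the 2 lines was not tested. These fits held no inflammation score. The *Dock2* wild type with the top score (5.97) was labelled male. It held the highest *Mmp3*, *Mmp9*, *Mmp13* and *Timp1* levels of the line (74.6, 69.7, 69.4 and 92.3 CPM), and its part in the sex differences was not tested.

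The rest of the pathway was read from 4 lists. None of their genes differed between knockouts and wild types in any line, and the smallest unadjusted p among the 42, 40, 40 and 40 tested was 0.0431 for the membrane protease gene *Hpn* in *Nckap1l* (0.60 ± 0.28), 0.00476 for matriptase (*St14*) in *Dock2* (0.18 ± 0.06), 0.0524 for the urokinase receptor (*Plaur*) in *Gpsm3* (0.64 ± 0.32) and 0.0411 for *Timp3* in *Dok3* (-0.24 ± 0.12), with adjusted p of 1, 0.559, 0.931 and 0.999. Along the score, 4, 4, 3 and 5 of 10 tested other metalloproteinases rose in *Nckap1l*, *Dock2*, *Gpsm3* and *Dok3* and 3, 1, 3 and 2 fell, where 23.2%, 26%, 27.1% and 30.2% of all genes fell. *Mmp25* (membrane-type, of leukocytes) rose by 0.48 to 0.58 per unit of score and *Mmp19* by 0.35 to 0.46, and *Mmp21* fell in 4 of 4 lines (-0.12 to -0.09). *Mmp15* (-0.11 to -0.02) fell in 3 of 4. Median slopes of this list were 0.05, -0.02, -0.01 and 0.07, against 0.65, 0.59, 0.60 and 0.57 for the members tested. Among other inhibitors, 4, 4, 3 and 4 rose and 1 fell in each line, with *Slpi* (the secretory leukocyte protease inhibitor, 0.38 to 0.68) among the steepest and *Timp4* and *Timp3* at the low end. Among activators, 4 of 8 rose in every line, led by *Plaur* (0.44 to 0.63) and the plasminogen activator *Plat* (0.41 to 0.51), and 2 or 3 fell, with the kallikrein *Klk1* (-0.54 to -0.31) and *Hpn* (-0.31 to -0.24) the steepest. Of the related ADAM and ADAMTS proteases, 14 of 16, 13 of 15, 12 of 15 and 13 of 15 rose, the steepest being *Adam28* (0.80, tested in 1 line) and *Adamts4* (0.58 to 0.77), and 1, 1, 1 and 2 fell, with *Adam15* (-0.09 to -0.04, called in 4 lines) and *Adamts15* (-0.07 to -0.03, called in 1) lowest.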

How the data were processed

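The authors deposited 1 file per sample holding raw counts of reads per Ensembl gene, without normalization, from single-end 100-base reads of a stranded, ribosomal RNA depleted library mapped to mm10 with STAR and counted with featureCounts of Subread. Tool versions, the annotation release and the strand setting are not given in the sources used here. Gene names came from GENCODE M21 (GRCm38), which named 37607 of 39179 genes (96%). Promoters came from RefSeq.

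Members, gene lists and tests were chosen with earlier results of these data known. Knockouts and wild types were compared per line with edgeR 4.0.16 quasi-likelihood tests (TMM normalization, filterByExpr, sex as a covariate in *Nckap1l* and *Dock2*), adjusted by Benjamini-Hochberg over all genes, at 0.05. Slopes used the same fit with genotype and the inflammation score, the mean log2 CPM (prior count 2) of 18 genes. Named genes were all 10 members, the list gene with the smallest p in each line where none passed, in each list the 2 steepest and the 2 lowest mean slopes among genes called in any line (*Timp2* and, for the family, *Timp3* and *Timp4* were named beside *Timp1* after their values were seen), and the 3 genes most like each member. A gene that this rule names is not reported here. Correlations across libraries used 100000 two-sided permutations, for 40 relations with the score, 45 pairs and 100 relations with marker lists. Nothing in the labels ties each sample to an animal, so p-values measure the spread between samples. As alternatives, fits with limma-voom (limma 3.58.1, the study's own method), DESeq2 1.42.0 and sva 3.50.0 were run, beside other filters, covariates, scores and subsets of libraries. The prostate markers and all alternatives that use them were added after seeing the genes most like *Mmp7*. The edgeR steps were tested on simulated data. Python 3.11.15 and scipy 1.17.1 were used for the rest. Counts limit precision: 3 counts were 0.15 to 0.69 CPM.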

Additional observations from a re-analysis of the deposited data

How the results depend on the processing

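No paired analysis was possible because the labels number no replicates, and the numbers used here only name libraries in accession order. Of 119 counts of called members under alternatives, 115 stayed within 1.5 times the reported count. With 2 surrogate variables, 1 member, *Mmp9*, was called in *Nckap1l* knockouts (log2 fold change 1.15, adjusted p = 0.0389), a call given without the share of all genes. With at least 10 counts in every sample, only 5 and 4 members were left to test in *Gpsm3* and *Dok3*, and 4 and 4 rose with the score. The share of all genes that rose under this filter is not given here, so these counts have no background beside them. In males only, 2 members differed across wild types, a count given without the share of all genes. Of 417 knockout fold changes under alternatives, 71 changed sign, 40 of them by less than 1 standard error of the reported value, and none of the 71 passed the test. Those that moved further were as follows. In *Nckap1l*, males alone gave -0.75 for *Mmp9*, -0.68 for *Timp1* and -0.07 for *Mmp14*, and libraries without skin or striated muscle markers gave -1.90, -0.97 and -0.14 for these and -0.31 for *Mmp2*. Without libraries holding prostate markers, *Nckap1l* gave 1.17 for *Mmp3*, 1.20 for *Mmp10* and 0.98 for *Mmp13*, *Dock2* 0.57 for *Mmp9*, 0.07 for *Timp1* and 0.20 for *Mmp13*, and *Gpsm3* -0.62 for *Mmp9*, -0.33 for *Timp1*, -0.01 for *Mmp13*, -0.17 for *Mmp3* and -0.47 for *Mmp10*. DESeq2 gave 0.51 for *Mmp9* and 0.17 for *Mmp13* in *Dock2* and -0.66 for *Timp1* in *Dok3*, and limma-voom 0.17 for *Timp1* and 0.09 for *Mmp13* in *Dock2* and -0.40 for *Mmp9* in *Dok3*. With the score as a covariate the values were 0.12 for *Timp1* and 0.10 for *Mmp13* in *Dock2*, -0.29 for *Mmp3* and -0.14 for *Mmp10* in *Gpsm3* and -0.24 for *Mmp9* in *Dok3*, and with 2 surrogate variables 0.38 for *Mmp13* in *Nckap1l* and -0.14 for *Mmp3* in *Gpsm3*. *Mmp12* kept a positive knockout fold change under every alternative run in the 4 lines, and none of these values was called. They ran from 0.14 to 1.59 in *Nckap1l*, 0.23 to 0.42 in *Dock2*, 0.40 to 0.87 in *Gpsm3* and 0.02 to 0.49 in *Dok3*. The alternatives refit the same libraries or subsets of them, so a shared sign is not independent support.
Of 490 slopes, 6 changed their call, all of *Mmp12*, and 3 turned: *Mmp12* in *Gpsm3* was 0.17 with skin and striated muscle levels as covariates and 0.40 on the macrophage score, and *Mmp7* in *Gpsm3* was 0.44 by limma-voom, none of them called. Over all lines the knockout coefficient was -0.22 for *Mmp9* and -0.28 for *Timp1* without skin or striated muscle libraries, and 0.41 for *Mmp7* without prostate libraries. With the score removed, the pairwise r turned to -0.22 for *Mmp2* and *Mmp8*, -0.16 for *Mmp3* and *Mmp8* and -0.17 for *Mmp8* and *Mmp12*. The alternatives on skin, striated muscle and prostate markers and the coefficient over all lines were chosen after seeing the data, and the causes of these shifts were not tested. Depth limits *Mmp7* and *Mmp8*, which had at most 3 counts in 83 and 71 libraries.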
